A study of Mus musculus with 6 samples.

Results

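The pentose phosphate pathway and the synthesis of phosphoribosyl pyrophosphate (PRPP) were followed through 8 genes, taken by symbol from the 54532 genes of the deposited expression table. They are the oxidative branch genes Pgls and Pgd, the non-oxidative branch genes Rpia, Rpe, Tkt and Taldo1, and the PRPP synthetase genes Prps1 and Prps2. All 8 were found once in the table and all 8 passed the filter on low values. The samples were CD8 T cells, the cytotoxic lineage, taken from mouse spleen and lymph nodes and stimulated in culture for 3 days with beads that carry antibodies to CD3 and CD28, after which their RNA was sequenced. The 2 groups were 3 samples of PTPMT1 wild-type mice (WT) and 3 samples of PTPMT1 knockout mice (KO), and both groups received the same stimulation. Ptpmt1 encodes a mitochondrial phosphatase that acts in cardiolipin synthesis. The labels do not name the deleted exons, a Cre driver, the age of the mice or whether each sample came from a separate mouse, so the p-values speak only to sample-to-sample spread, part of which may be technical.

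The oxidative branch turns glucose 6-phosphate into ribulose 5-phosphate in steps that release NADPH, the reductant used for lipid synthesis and for recycling glutathione. The non-oxidative branch interconverts pentose phosphates with the sugar phosphates of glycolysis, and it can run towards ribose 5-phosphate or away from it. PRPP synthetase activates ribose 5-phosphate to PRPP, which purine, pyrimidine and NAD synthesis consume. Activated T cells divide quickly, and both NADPH and ribose are needed for growth.

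Rebuilt reads totalled 14932604 to 16819913 per sample, and the 8 genes had between 5366 (Rpia) and 51496 (Tkt) reads over the 6 samples. FPKM are fragments per kilobase of gene, scaled to a library total that differed from the rebuilt reads in each sample. Ptpmt1 itself had 3.75, 3.84 and 4.13 FPKM in WT and 1.0004, 1.58 and 1.504 in KO, in the order of replicates used throughout. Its log2 fold change, KO minus WT as for all genes here, was -1.26 (SE 0.198, limma adjusted p = 0.0884). The libraries of KO did not resemble each other in every respect. KO replicate 3 had 0 reads of Xist, an RNA of the inactive X chromosome, and 1837 reads of the Y-linked Ddx3y, whereas the other 5 samples had at least 3513 and 0 reads. Of the 8 genes, 2 (Prps1 and Prps2) lie on the X chromosome. The 6 CD8 T cell markers (Cd3d, Cd3e, Cd3g, Cd8a, Cd8b1 and Trac) summed to 1328 to 1719 FPKM in WT and to 1292, 1528 and 828 in KO. They did not move together in KO replicate 3. Cd8b1, Cd3d, Cd3g and Trac were lowest there among the KO samples, but Cd8a and Cd3e were highest. Cd8a had 135.1, 108.8 and 145.0 FPKM in KO, and Cd3e 27.1, 20.4 and 31.9. The 4 markers of gamma-delta T cells summed to 18.6, 19.3 and 39.6 FPKM in WT and to 18.2, 33.6 and 115.0 in KO. The 5 markers of granulocytes and mast cells summed to 7.96, 6.40 and 17.1 in WT and to 15.1, 10.3 and 73.7 in KO. Of the 73.7 FPKM in KO replicate 3, Mcpt8 had 43.3 and Cpa3 25.9. S100a8, S100a9 and Elane had 1.76, 0.637 and 2.20 FPKM there, against 1.89, 2.73 and 0.0579 in WT replicate 3. In bulk samples, fewer cells of a type and less RNA per cell cannot be told apart.

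Prps1 had the largest difference of the 8 genes, with a mean 1.87 times as high in KO as in WT, and Rpe came next at 1.54 times. Pgls, Rpia, Tkt and Prps2 had KO means 1.24 to 1.31 times those of WT. Pgd and Taldo1 had ratios of 1.05 and 0.984. In 5 of the 8 genes (Pgls, Rpia, Rpe, Prps1 and Prps2) every KO sample lay above every WT sample, and in 0 genes did every KO sample lie below, where 14.5% of all 12654 genes tested were separated upward, 13.3% downward and 27.8% in either direction. None of the 8 genes passed limma's test at an adjusted p under 0.05, as 0.0395% of all genes did, and limma-voom on rebuilt reads also called 0 of the 8. At an unadjusted p under 0.05, limma gave 3 members, Prps1, Rpe and Prps2, all higher in KO, where 11.5% of all genes had such a p in that direction. By limma-voom 2 of the 8 did, where 10.4% of all genes did. Without KO replicate 3, 2 of the 8 were called, Prps1 and Rpe, both higher, where 13.7% of all genes were called, 8.12% higher and 5.58% lower. A log2 fold change above 0 was found for 7 of the 8 genes and for 52.4% of all genes. The median log2 fold change was 0.35 over the 8 genes and 0.03 over all genes tested.

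**Figure D1:**
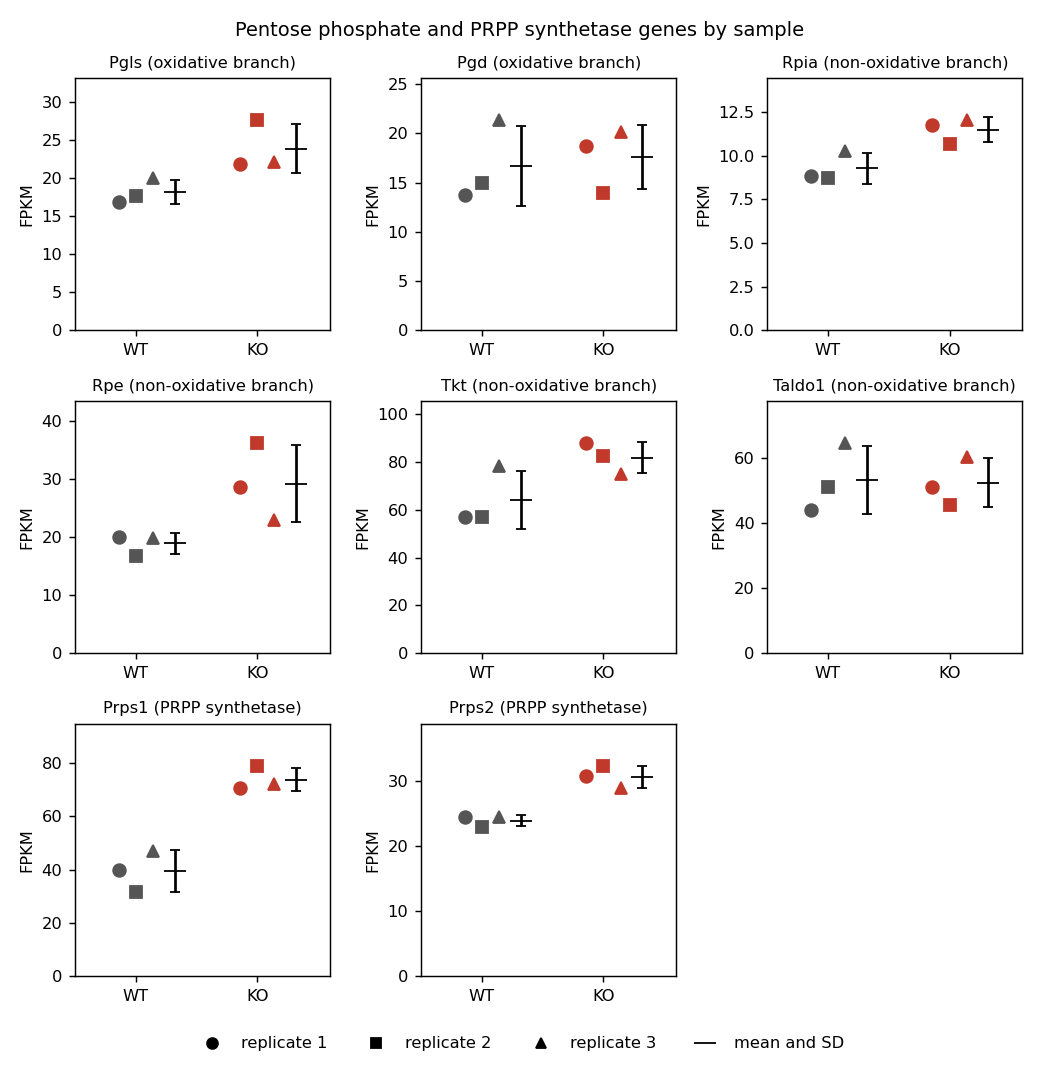
FPKM (vertical axes, from 0) of each of the 8 genes in 3 WT and 3 KO samples, with the symbol giving the replicate and the black mark the mean and SD. The 2 groups are separated for 5 genes, and for Pgd, Tkt and Taldo1 WT replicate 3 lies inside or above the range of KO.

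In the oxidative branch, Pgls encodes 6-phosphogluconolactonase, which opens a lactone ring to give 6-phosphogluconate (ENSMUSG00000031807, mm10 chromosome 8, 71592176 to 71601092, plus strand). It had 16.8, 17.6 and 19.9 FPKM in WT and 21.8, 27.5 and 22.1 in KO. Every KO value was above every WT value, and KO replicate 2 stood above the other KO samples. The means were 18.1 ± 1.61 and 23.8 ± 3.22 FPKM (SD, n = 3 each), and the log2 fold change was 0.38 (SE 0.164, 95% interval -0.01 to 0.77, adjusted p = 0.235).

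Pgd encodes 6-phosphogluconate dehydrogenase, which releases NADPH and carbon dioxide (ENSMUSG00000028961, chromosome 4, 149149991 to 149166771, minus strand). It had 13.7, 15.0 and 21.3 FPKM in WT and 18.7, 13.9 and 20.2 in KO. The highest of the 6 values belonged to WT and the ranges overlapped almost whole. The log2 fold change was 0.08 (SE 0.228, interval -0.46 to 0.62, adjusted p = 0.856), and its sign changed when WT replicate 1 or KO replicate 3 was left out.

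In the non-oxidative branch, Rpia encodes ribose 5-phosphate isomerase, which makes ribose 5-phosphate from ribulose 5-phosphate (ENSMUSG00000053604, chromosome 6, 70765720 to 70792232, minus strand). It had 8.84, 8.70 and 10.3 FPKM in WT and 11.8, 10.7 and 12.02 in KO. The groups did not overlap, but WT replicate 3 and KO replicate 2 lay close together. The log2 fold change was 0.30 (SE 0.148, adjusted p = 0.289). Rpe encodes the epimerase that turns the same ribulose 5-phosphate into xylulose 5-phosphate (ENSMUSG00000026005, chromosome 1, 66700831 to 66719805, plus strand). It had 20.1, 16.8 and 20.0 FPKM in WT and 28.6, 36.2 and 22.9 in KO. All KO values exceeded all WT values, with a wide spread in KO (29.2 ± 6.66 FPKM, SD, n = 3) against 19.0 ± 1.87 (SD, n = 3) in WT. The log2 fold change was 0.59 (SE 0.204, interval 0.11 to 1.08, limma adjusted p = 0.168). KO replicate 3 was the lowest KO sample, and without it the log2 fold change was 0.75 (limma adjusted p = 0.0425). That fit made 1733 calls over all genes against 5 with all samples. Without KO replicate 2, the highest KO sample, the log2 fold change of Rpe was 0.43 (limma adjusted p = 0.284). Leaving out any sample other than KO replicate 3 gave Rpe a limma adjusted p of 0.206 to 0.504.

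Tkt encodes transketolase, which moves 2-carbon units between sugar phosphates, and it was the gene of the set with the most reads (ENSMUSG00000021957, chromosome 14, 30548359 to 30574720, plus strand). It had 57.2, 57.1 and 78.2 FPKM in WT and 87.7, 82.4 and 74.9 in KO. WT replicate 3 lay above KO replicate 3, so the groups overlapped by that pair alone. The log2 fold change was 0.36 (SE 0.190, interval -0.09 to 0.81, adjusted p = 0.313). Taldo1 encodes transaldolase, which moves 3-carbon units (ENSMUSG00000025503, chromosome 7, 141392199 to 141402968, plus strand). It had 44.2, 51.1 and 64.6 FPKM in WT and 51.2, 45.7 and 60.5 in KO. Its log2 fold change was -0.01 (SE 0.204, interval -0.50 to 0.47, adjusted p = 0.975). In both groups the third replicate was the highest for Taldo1 and Pgd. The summed gamma-delta T cell markers were also highest in these samples, at 39.6 and 115.0 FPKM, and their part in the result was not tested.

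The upstream sequences of Prps1, Prps2 and Rpe, the 3 genes that limma gave an unadjusted p below 0.05, are given here so that their letters can be compared. They are the 250 bases before the RefSeq start (build GRCm38.p6), 5′ to 3′ on the strand of the gene, and overlap 0 exon bases of GENCODE M21. Capitals mark matches on either strand to the GC box (GGGCGG), the CCAAT box (CCAAT) and the core TGATGNAA of sites bound by ATF4. Prps1 is at chrX:140456353-140456602 (plus strand), Prps2 at chrX:167382750-167382999 (minus strand) and Rpe at chr1:66700581-66700830 (plus strand).
Prps1: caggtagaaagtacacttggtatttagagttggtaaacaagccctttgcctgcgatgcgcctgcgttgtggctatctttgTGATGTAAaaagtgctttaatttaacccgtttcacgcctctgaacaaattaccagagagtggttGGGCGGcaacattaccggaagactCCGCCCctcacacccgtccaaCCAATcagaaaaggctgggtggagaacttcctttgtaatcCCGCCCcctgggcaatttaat
Prps2: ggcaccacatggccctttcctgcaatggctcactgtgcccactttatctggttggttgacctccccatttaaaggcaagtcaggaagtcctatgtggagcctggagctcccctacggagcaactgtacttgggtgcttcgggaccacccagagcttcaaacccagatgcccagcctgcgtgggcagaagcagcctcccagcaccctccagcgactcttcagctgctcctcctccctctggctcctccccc
Rpe: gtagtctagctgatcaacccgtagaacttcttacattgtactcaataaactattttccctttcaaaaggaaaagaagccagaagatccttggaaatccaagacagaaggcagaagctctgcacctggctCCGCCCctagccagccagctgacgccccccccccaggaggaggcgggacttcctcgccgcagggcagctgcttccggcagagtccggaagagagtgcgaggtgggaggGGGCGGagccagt
Counted back from the start, the first bases of the matches in Prps1 lie at -170 (TGATGNAA), -106, -82 and -21 (GC box) and -61 (CCAAT). Rpe has GC boxes at -121 and -13, and Prps2 has 0 matches to these 3 motifs. Windows not printed hold them too: the GC box lies upstream of Pgls, Pgd, Rpia, Tkt and Taldo1, and CCAAT upstream of Pgd and Taldo1. None of those genes has TGATGNAA. Over 32851 RefSeq promoter windows of the same length, 3.45% hold TGATGNAA, 32.7% the GC box and 33.8% CCAAT. The E-box CACGTG, which MYC binds, was searched too, and 6.02% of all windows hold it but none of the windows of the 8 genes does. The core TGACNNNGC of the antioxidant response element is in 10.2% of all windows and in none of those of the 8 genes. No motif overlaps another in the 3 windows printed. A match is a description of letters, and no binding was measured.

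Prps1 encodes the widely expressed PRPP synthetase isozyme (ENSMUSG00000031432, chromosome X, 140456613 to 140476140, plus strand). It had 39.9, 31.4 and 47.0 FPKM in WT and 70.5, 78.8 and 72.1 in KO. The lowest KO sample stood well above the highest WT sample, and the means were 39.4 ± 7.81 and 73.8 ± 4.37 FPKM (SD, n = 3 each). The log2 fold change was 0.91 (SE 0.192, interval 0.46 to 1.37, limma adjusted p = 0.0970), which missed the threshold. Without KO replicate 3, the sample with Ddx3y reads, it was 0.93 (limma adjusted p = 0.0404). The unadjusted limma p of Prps1 rose from 0.00208 to 0.00362, and the lower adjusted p came with 1733 calls over all genes against 5. With any other sample left out the limma adjusted p of Prps1 was 0.0680 to 0.433. Prps2 encodes the isozyme known to respond to MYC in growing cells (ENSMUSG00000025742, chromosome X, 167346322 to 167382749, minus strand). It had 24.4, 22.9 and 24.4 FPKM in WT and 30.8, 32.2 and 28.9 in KO. The groups were separate and tight (23.9 ± 0.881 and 30.6 ± 1.67 FPKM, SD, n = 3 each), and the log2 fold change was 0.35 (SE 0.140, interval 0.02 to 0.68, limma adjusted p = 0.210).

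The balance of the isozymes was compared within samples. The log2 ratio of Prps2 to Prps1 within a sample, computed on FPKM + 0.5, came to -0.70, -0.45 and -0.93 in WT samples and to -1.18, -1.28 and -1.30 in KO samples. Every KO ratio was lower, and the means differed by -0.56 (exact 2-sided permutation p = 0.1, the smallest that 3 against 3 samples allow). The comparison is of these 2 genes and leaves out the near copy described next. The near copy Prps1l3 on chromosome 12 has a coding sequence of 954 bases that is 96.9% identical to that of Prps1, against 80.0% for Prps2. Of the 50-base stretches of the Prps1 transcript, 10.1% also occur in Prps1l3, and reads from these could be assigned to either gene or lost. Prps1l3 had 37.6, 30.1 and 28.5 FPKM in WT and 49.5, 49.6 and 39.3 in KO, a log2 fold change of 0.52 (SE 0.184, adjusted p = 0.175). With the reads of both genes added, the log2 fold change was 0.76 (SE 0.173, adjusted p = 0.107), an alternative chosen after the values were seen.

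**Figure D2:**
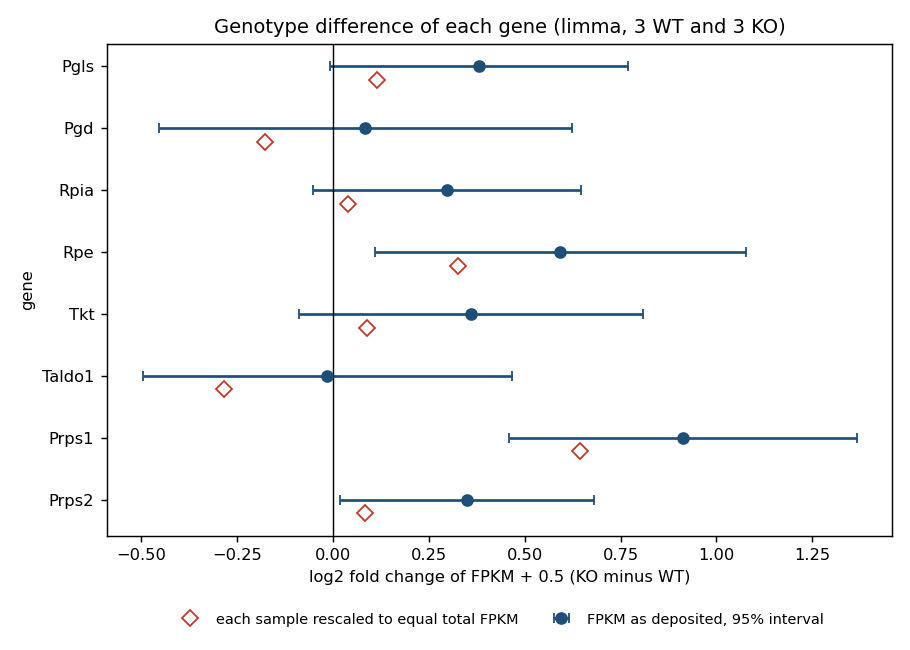
Log2 fold change of FPKM + 0.5 (horizontal axis, KO minus WT) of each gene with its 95% interval from limma over 3 WT and 3 KO samples, and, as open diamonds, the value after each sample was rescaled to the same total FPKM. Prps1 is farthest to the right on both scales, at 0.91 and 0.64, and Pgd moves from 0.08 to -0.18.

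The scale of the samples bore on the smaller differences. The summed FPKM of all genes differed between samples, and rescaling each sample to the same total moved the all-gene median of the log2 fold changes from 0.03 to -0.20. KO replicate 2 stood apart: its deposited values implied a library total of 0.780 times its rebuilt reads (0.941 to 1.10 in the others), and mitochondrial and ribosomal protein transcripts took 7.53% and 19.0% of its reads (2.38% to 4.76% and 11.0% to 15.4% in the others). The part of these shares in the differences was not tested. The implied totals ran close to the TMM scaling factors that limma-voom used on rebuilt reads. These factors were 0.821 for KO replicate 2 and 0.977 to 1.11 in the others. The scale of equal total FPKM replaces any such scaling in the deposited values. On that scale Prps1 had a log2 fold change of 0.64 (limma adjusted p = 0.274) and Rpe 0.33, and both remained separate between the groups. For Prps1 the groups almost touched, with 56.43 FPKM in KO replicate 2 and 56.05 in WT replicate 3. The same samples had 25.9 and 23.8 FPKM of Rpe. Prps1 and Rpe were the 2 members separated upward, where 5.7% of all genes were. On that scale 6 of the 8 genes lay above 0, as did 34.3% of all genes. Apart from Prps1 and Rpe the genes overlapped, with log2 fold changes of 0.11 (Pgls), 0.04 (Rpia), 0.09 (Tkt), 0.08 (Prps2), -0.18 (Pgd) and -0.28 (Taldo1). All but Taldo1 lay above the median of all genes on that scale. Prps1 alone of the 8 then had an unadjusted p under 0.05, where 3.83% of all genes had one in that direction.

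The make-up of the 8 genes within each sample is the same under any scaling of samples, but it depends on the gene lengths used. For Pgls the deposited length is 3770 bases, where its principal transcript in GENCODE M21 has 893. The shares given here, also by branch, use the deposited lengths. Prps1 held 17.7%, 14.2% and 16.5% of the summed FPKM of the 8 genes in WT and 21.96%, 24.1% and 23.0% in KO. Taldo1 held 19.6%, 23.2% and 22.6% in WT and 16.0%, 13.9% and 19.3% in KO, so that each KO share was below each WT share. Together the PRPP synthetases held 26.1 ± 2.17% in WT and 32.5 ± 1.22% in KO (SD, n = 3 each). The non-oxidative branch held 59.7 ± 1.57% and 54.5 ± 1.22%, and Pgls with Pgd 14.3 ± 0.618% and 12.9 ± 0.486%. Shares of 1 whole are tied to each other, so a higher share of Prps1 lowers the rest.

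**Figure D3:**
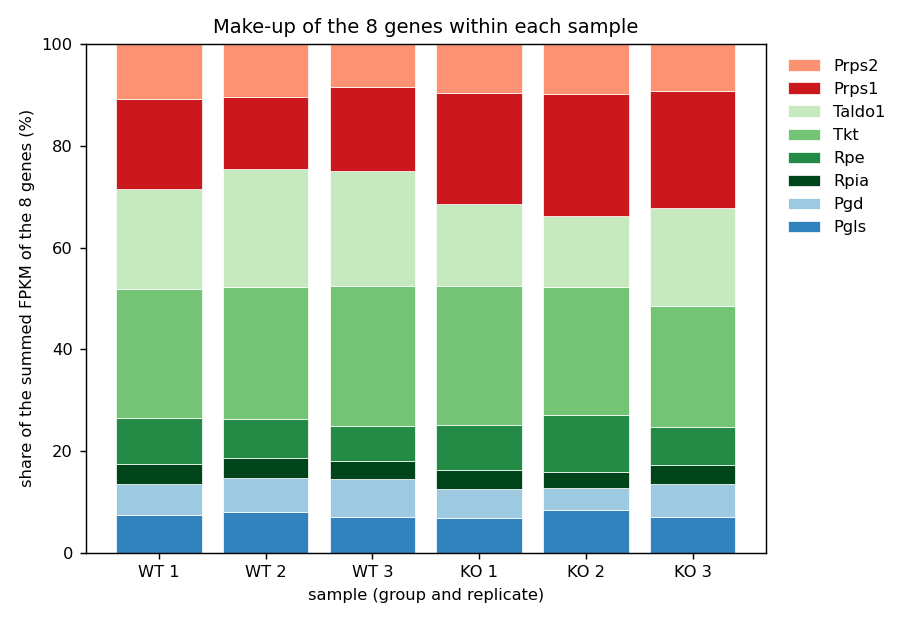
Stacked bars of the share (%) that each of the 8 genes takes of their summed FPKM in each of 6 samples, blue for the oxidative branch, green for the non-oxidative branch and red for PRPP synthetases. The Prps1 segment is 14.2% to 17.7% in WT and 21.96% to 24.1% in KO.

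By level per kilobase of the deposited gene length, the WT means ran from Tkt (64.2 FPKM), Taldo1 (53.3) and Prps1 (39.4) through Prps2 (23.9), Rpe (19.0), Pgls (18.1) and Pgd (16.7) to Rpia (9.27). Neighbours in that order overlapped between their samples, except for Prps1 with Prps2, Prps2 with Rpe, and Pgd with Rpia. In KO, every Prps1 value (mean 73.8 FPKM) lay above every Taldo1 value (52.5) and the range overlapped that of Tkt (81.7). For each of the 8 genes the deposited length equals the joined exons of all its GENCODE M21 transcripts, and for Tkt it is 7355 bases where its principal transcript in GENCODE M21 has 3223. Per kilobase of principal transcript, the WT level was 146.4 for Tkt, 94.1 for Taldo1, 76.6 for Pgls, 48.5 for Pgd and 40.0 for Prps1, so the order between genes depends on the length used, while ratios between samples do not. Exons of Rpe overlap those of Kansl1l on the opposite strand by 558 bases, and those of Pgls overlap Fam129c on the same strand by 776 bases. The overlapping genes had 0.815 to 1.66 and 0.942 to 1.80 FPKM in the 6 samples. Of the 50-base stretches of a transcript, 12.4% of those of Taldo1 occur in the pseudogene Gm17823.

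Of 14 other genes of pentose and PRPP metabolism, 10 passed the filter on low values. None was called, and 1 gene in each direction had an unadjusted p below 0.05, near the shares over all genes of 11.5% upward and 10.2% downward. With equal totals it was 0 upward and 1 downward, where 485 and 1630 of all 12654 genes had such a p. Prps1l3, given above, was the higher one. Shpk, sedoheptulokinase, which feeds a 7-carbon sugar into the non-oxidative branch, had 3.31, 3.84 and 3.28 FPKM in WT and 1.77, 2.20 and 2.25 in KO (log2 fold change -0.63, SE 0.175, adjusted p = 0.127). Idnk, gluconokinase, which makes 6-phosphogluconate directly from gluconate, had 14.2, 14.3 and 16.2 FPKM in WT and 12.6, 11.4 and 12.5 in KO (-0.28, SE 0.143, adjusted p = 0.301). Both were separated downward, and 2 of the 10 genes were separated upward, where 13.3% and 14.5% of all genes were. With equal totals 1 of the 10 was separated downward and 0 upward, where 17.0% and 5.7% of all genes were. The PRPP synthetase-associated proteins Prpsap1 and Prpsap2, which bind the synthetases and restrain them, overlapped between groups, with log2 fold changes of -0.06 (SE 0.263) and 0.08 (SE 0.184). The median of the 10 genes was 0.01.

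Among the 7 enzymes that use PRPP, 6 passed the filter and none was called. An unadjusted p below 0.05 was found for 4 of them in the upward direction and for 1 downward (11.5% and 10.2% of all genes). With equal totals it was 3 upward and 1 downward, where 485 and 1630 of all 12654 genes had such a p. Ppat, the amidotransferase that commits PRPP to purine synthesis, had 20.1, 17.0 and 22.3 FPKM in WT and 43.3, 43.3 and 37.4 in KO (log2 fold change 1.05, SE 0.167, adjusted p = 0.0884). Aprt, which salvages adenine with PRPP, had 44.3, 39.6 and 47.0 in WT and 78.9, 81.7 and 63.7 in KO (0.77, SE 0.173, adjusted p = 0.105). Nampt, the entry enzyme of NAD salvage, had 22.8, 20.6 and 19.9 in WT and 34.2, 41.1 and 30.3 in KO (0.72, SE 0.170, adjusted p = 0.109). For each of these the groups did not overlap, also after rescaling to equal totals. The median of the 6 was 0.74 as deposited and 0.47 rescaled. Without KO replicate 3, 5 of the 6 were called higher, where 8.12% of all genes were and where 2 of the 8 pathway genes, Prps1 and Rpe, were. Qprt, which uses PRPP to make NAD from tryptophan, went the other way with 3.33, 4.09 and 2.17 FPKM in WT and 0.913, 1.35 and 1.42 in KO (-1.07, SE 0.264, adjusted p = 0.110), and is named here after its value was seen.

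Of 13 genes for other enzymes that make NADPH and for NAD kinases, 9 passed the filter and none was called, with an unadjusted p below 0.05 upward for 4 and downward for 2 (11.5% and 10.2% of all genes). The upward ones depended on the scale: with equal totals the counts were 0 and 2, where those over all 12654 genes were 485 and 1630. Idh2, the mitochondrial NADP-dependent isocitrate dehydrogenase, had 34.0, 32.9 and 34.9 FPKM in WT and 22.9, 17.4 and 23.6 in KO (log2 fold change -0.67, SE 0.171, adjusted p = 0.113). Without KO replicate 3 it was -0.75 (limma adjusted p = 0.0402), in a fit with 1733 calls over all genes against 5. Without WT replicate 1 the limma adjusted p of Idh2 was 0.358. Mthfd2, of mitochondrial folate metabolism, had 12.9, 14.5 and 20.8 in WT and 29.5, 24.4 and 59.2 in KO (1.13, SE 0.353, adjusted p = 0.150), and KO replicate 3 set its upper end. Aldh1l1, of cytosolic folate metabolism, was low throughout, at 0.703 to 1.26 FPKM in WT and 0.225 to 0.304 in KO (-0.87, SE 0.290, adjusted p = 0.160). Of 4 reductases that spend NADPH, all 4 passed the filter, none was called and 3 had an unadjusted p below 0.05, upward in each case, where 11.5% of all genes had one. With equal totals 1 of the 4 did, Nqo1, where 3.83% of all genes did in that direction. As deposited, the 3 were the quinone reductase Nqo1 (log2 fold change 1.93, SE 0.235, adjusted p = 0.0757), the mitochondrial thioredoxin reductase Txnrd2 (0.49, SE 0.162, adjusted p = 0.158) and the glutathione reductase Gsr (0.75, SE 0.269, adjusted p = 0.178). Nqo1 was low in WT, at 0.433, 0.294 and 0.257 FPKM, and had 3.07, 2.16 and 2.78 in KO. Without KO replicate 3 its log2 fold change was 1.90 (limma adjusted p = 0.0344). The unadjusted limma p of Nqo1 rose from 7.78e-05 to 0.000368, and the lower adjusted p came with 1733 calls over all genes against 5. Without WT replicate 1 the limma adjusted p of Nqo1 was 0.316. Gsr had 13.6, 13.6 and 21.6 FPKM in WT and 31.1, 19.8 and 32.3 in KO, with WT replicate 3 above KO replicate 2.

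**Figure D4:**
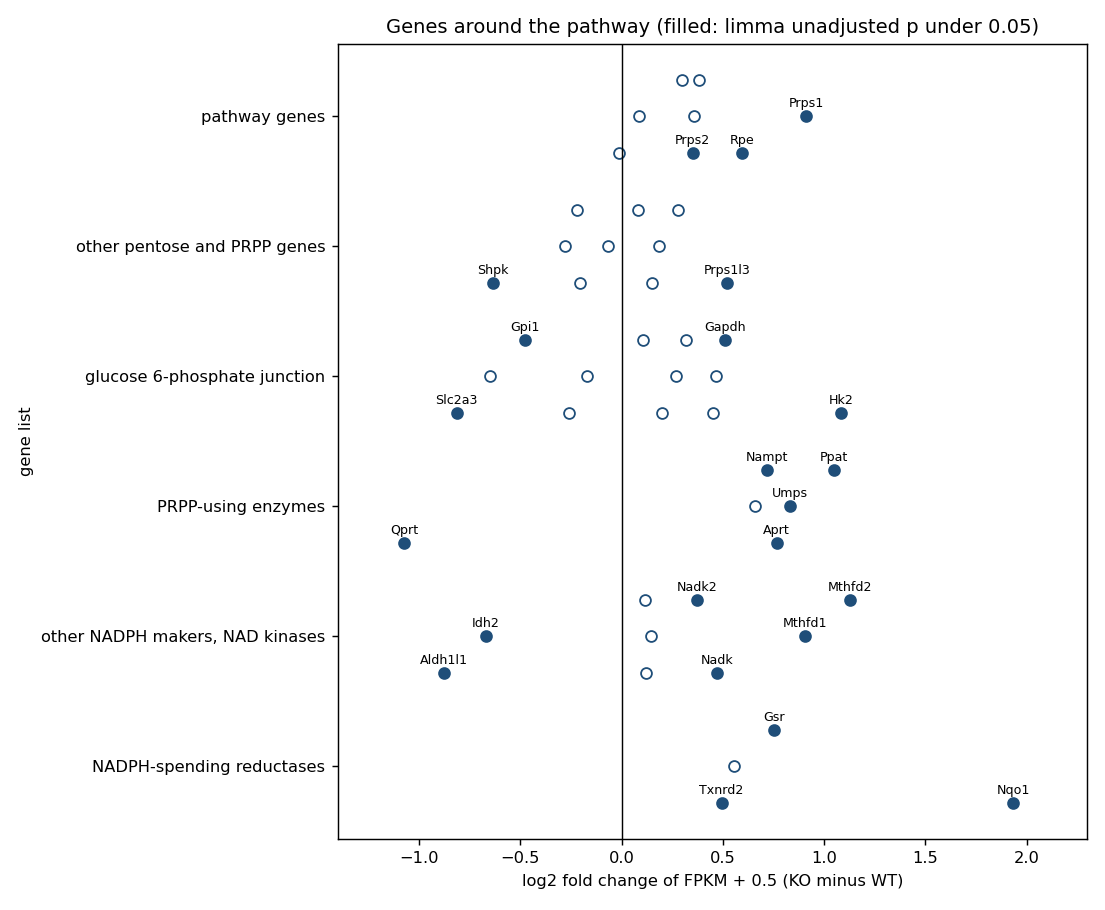
Log2 fold change of FPKM + 0.5 (horizontal axis, KO minus WT, limma over 3 WT and 3 KO samples) of the 8 pathway genes and of 5 lists of genes around the pathway, 1 circle per gene, spread vertically within a list for legibility. Filled circles have an unadjusted p under 0.05, and the PRPP-using enzymes run from -1.07 (Qprt) to 1.05 (Ppat).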

How the data were processed

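RNA was sequenced from 6 cultures of activated CD8 T cells, 3 WT and 3 KO by the titles. The authors deposited 1 FPKM value per gene and sample for 54532 genes, with gene lengths. The KO columns carry the name of the gene, and were matched to the KO titles by number. The submitters' processing notes name the build mm10, the counter featureCounts (1.5.0-p3), the aligner HISAT2 (2.0.5), DESeq2 and Trim Galore. Annotation release, strand setting and treatment of multiply mapped reads were not given in the sources. In each sample, at least 99.99% of nonzero FPKM × length products were whole multiples (tolerance 0.05) of the worth of 1 read, which gave rebuilt reads.

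The scale was log2(FPKM + 0.5), over 12654 genes whose mean FPKM reached 0.5, and it understates changes of low genes. Limma 3.58.1 in R 4.3.3 (eBayes with trend, 2-sided, genotype as the only term, all 6 samples) was fitted over all genes, with Benjamini-Hochberg adjustment and a threshold of 0.05. Of 54532 identifiers, 54409 matched GENCODE M21 (mm10). Upstream sequences are from RefSeq (GRCm38.p6), which held all 8 genes. On simulated data for 12654 genes, limma recovered 45 of 100 genes changed 2-fold and 99 of 100 changed 4-fold, and called 9 unchanged genes. The simulation gave all genes the same dispersion, changed only genes above a floor of mean reads and had no outlying sample. It therefore does not measure recovery in these data. All 8 members were named, and from each further list the called genes or the 3 with the smallest p. The members, lists and motifs were chosen with earlier results of these data known. A further gene of the pathway is not reported here, and counts and shares leave it out. Alternatives covered the pseudocount, the filter, scaling, the variance model, sample weights (arrayWeights, gene by gene), a replicate block, limma-voom with TMM factors, and each sample left out. Exact tests used scipy 1.17.1 in Python 3.11.15, with figures from matplotlib 3.10.9.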

Additional observations from a re-analysis of the deposited data

How the results depend on the processing

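Prps1, Rpe, Prps2, Pgls, Rpia and Tkt kept a log2 fold change above 0 under every alternative run, with ranges of 0.64 to 1.05 for Prps1 and 0.33 to 0.75 for Rpe. The sign of Pgd and Taldo1 did not hold: Pgd was -0.18 with equal totals and -0.039 to 0.27 with 1 sample left out, and Taldo1 was 0.056 with sample weights and -0.14 to 0.13 with 1 sample left out. The number of the 8 genes with an unadjusted p under 0.05 and higher in KO, 3 as reported, was 4 without a filter, 1 with equal totals, 7 with sample weights and 1 to 4 with 1 sample left out (1 without WT replicate 2, KO replicate 1 or KO replicate 2). The number separated upward, 5, was 2 with equal totals, 4 with limma-voom and 5 to 6 with 1 sample left out. The number called, 0, was 7 with sample weights and 0 to 2 with 1 sample left out, the 2 arising without KO replicate 3. Over all genes, the 5 calls became 3 with a pseudocount of 1, 3 without a filter, 14 without the variance trend, 6710 with sample weights, 1 with limma-voom, 12 with the replicate block and 2 to 1733 with 1 sample left out (1733 without KO replicate 3). The sample weights were uneven, at 9.10 for KO replicate 1 against 0.192 for KO replicate 3. Among all genes reaching an unadjusted p of 0.05, those higher in KO made up 52.9% as deposited and 22.9% with equal totals. The cause of these changes was not tested.

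Replicate numbers are shared by the groups. Deviations of same-numbered samples correlated at 0.132, 0.0665 and 0.331 for numbers 1 to 3, and those of different-numbered samples at -0.307 to 0.267. WT replicate 1 correlated best with KO replicate 2 (0.267). These values do not settle whether samples were paired, and no pairing was assumed. With the replicate block, 2 of the 8 genes had an unadjusted p under 0.05 and 0 were called, and the difference in the Prps2 to Prps1 ratio was -0.56 (exact permutation p = 0.25, the smallest that 3 pairs allow). Without the block, that difference was -0.68 to -0.44 with 1 sample left out.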

Other observations

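At the junction where glucose 6-phosphate leaves glycolysis for the pentose phosphate pathway, 13 of 14 listed genes passed the filter, limma called none, and an unadjusted p below 0.05 was found for 2 genes in each direction (11.5% of all genes upward and 10.2% downward). With equal totals the counts were 0 upward and 2 downward, where those over all 12654 genes were 485 and 1630. Slc2a3, the glucose transporter GLUT3, had 12.8, 15.2 and 7.47 FPKM in WT and 6.16, 5.45 and 7.24 in KO (log2 fold change -0.81, SE 0.272, adjusted p = 0.162). Hk2, the inducible hexokinase, had 2.38, 3.02 and 4.45 FPKM in WT and 6.18, 4.28 and 14.5 in KO, overlapping between WT replicate 3 and KO replicate 2 (1.09, SE 0.432, adjusted p = 0.209). Without KO replicate 3 its log2 fold change was 0.61. Gpi1, the isomerase that draws glucose 6-phosphate on into glycolysis, had 85.1, 102.9 and 76.0 FPKM in WT and 62.9, 53.3 and 72.7 in KO (-0.48, SE 0.198, adjusted p = 0.222). It lay outside the rule for names and was chosen after its value was seen.

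Gapdh was listed at 2.38 to 4.61 FPKM in the 6 samples, whereas its neighbours in glycolysis Tpi1 and Aldoa, named after their values were seen, had 149.2 to 290.8 and 203.1 to 294.5. Of the 50-base stretches of the Gapdh transcript, 82.5% occur in transcripts of other annotated genes, 218 in number, against 10.1% for Prps1, 12.4% for Taldo1 and 0 for Pgls, Pgd, Rpia, Rpe and Tkt. Its log2 fold change of 0.51 (SE 0.202, limma adjusted p = 0.207) rests on 1466 reads over 6 samples. Gapdh and Hk2 were the 2 genes at the junction counted above as upward with an unadjusted limma p below 0.05. With equal totals the log2 fold change of Gapdh was 0.28.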
